A study of Homo sapiens with 12 samples.

Results

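The 35 human aminoacyl-tRNA synthetase genes were examined for HSF1 occupancy at their transcript starts, out of 20033 protein-coding genes in the GENCODE release 44 annotation of hg38. They were 19 genes for the cytosolic enzymes, whose symbols end in 1 or which, as GARS1 and KARS1 do, supply the cytosol and the mitochondrion (FARSA and FARSB encode the subunits of 1 enzyme), and 16 genes for the mitochondrial enzymes, whose symbols end in 2. The study mapped heat shock factor 1 (HSF1) in liver cancer cells, and the data used here are CUT&Tag peak lists, in which an antibody directs the transposase Tn5 to cut at the sites where its target sits. Cells were untreated wild-type Huh7, an established hepatocellular carcinoma line, and 1 library was made with an antibody to HSF1 and 1 with an antibody to H3K27ac, a histone mark of active promoters and enhancers. The siRNA-treated cells of the study were not used here. With 1 library per antibody there was no replicate check and no test between conditions, and the intervals given are 95% Wilson intervals that cover counting error over genes only. Of 3604911 HSF1 tags, 2712212 (75.2%) were left once duplicates had been dropped, and 7147 peaks were used. The H3K27ac library was sequenced to 15737890 tags but only 896393 (5.7%) remained, and 1299 peaks were used.

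Each aminoacyl-tRNA synthetase joins an amino acid to its transfer RNA, so that together these enzymes set which residue the ribosome adds at each codon. Separate nuclear genes encode most of the cytosolic and the mitochondrial enzymes, and the mitochondrial proteins are imported to serve the ribosome of that organelle. HSF1 is the master regulator of the heat shock response and binds heat shock elements, which are alternating GAA and TTC units. The CCAAT box is a promoter element bound by the trimeric factor NF-Y. When amino acids are short, many cytosolic synthetase genes are induced by ATF4, which binds the amino acid response element.

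An HSF1 peak was assigned to a gene when its summit lay within 1 kb of any annotated transcript start. By this rule 22 of the 35 synthetase genes were bound (62.9%, interval 46.3 to 76.8), against 25.4% of all protein-coding genes (5098 of 20033, interval 24.8 to 26.1). The gene set was chosen with earlier results of these data known, so this contrast is a description only. The bound share was 13 of 19 for the cytosolic genes (68.4%, 46.0 to 84.6) and 9 of 16 for the mitochondrial genes (56.2%, 33.2 to 76.9). The intervals of these last groups overlap over most of their length, and the difference between cytosolic and mitochondrial genes was not tested. Genes for the other large part of the translation machinery lay lower, with 31 of 80 cytosolic ribosomal protein genes (38.8%, 28.8 to 49.7) and 27 of 78 mitochondrial ribosomal protein genes (34.6%, 25 to 45.7) bound. The interval of the cytosolic ribosomal protein genes overlapped the lower end of the synthetase interval, and that of the mitochondrial ones ended just below it.

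**Figure D1:**
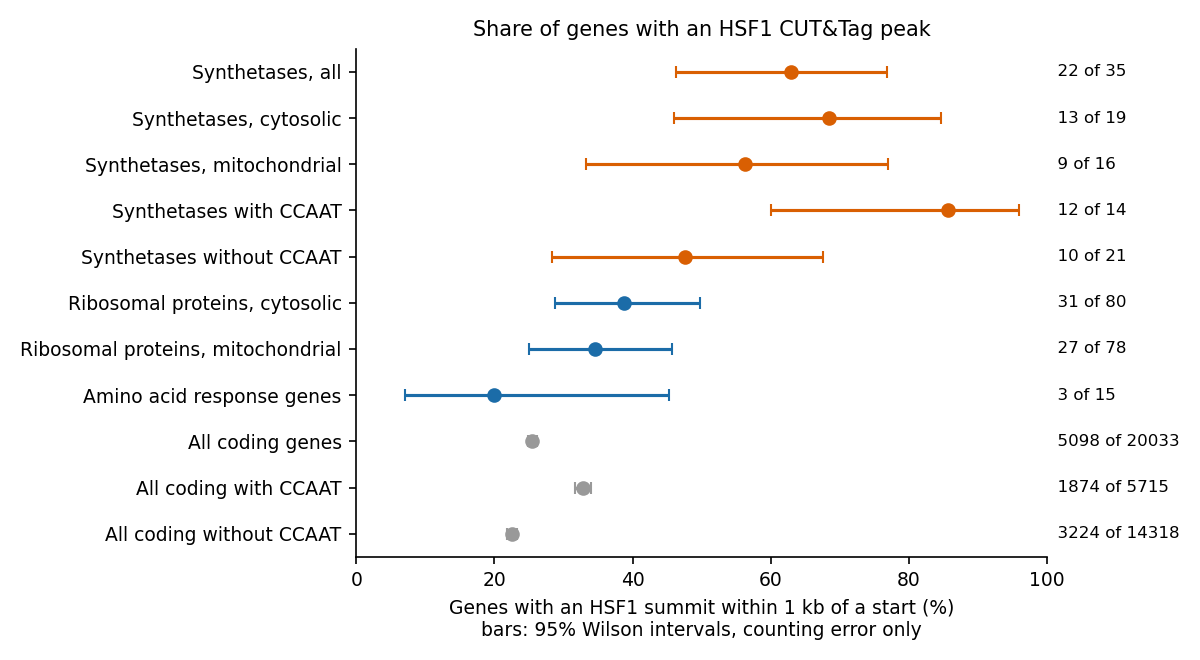
Points give the percentage of genes with an HSF1 CUT&Tag summit within 1 kb of a transcript start, bars are 95% Wilson intervals, and the counts stand at the right. The synthetase genes sit at 62.9% and all coding genes at 25.4%, and for both of these sets the genes with CCAAT at the start sit above those without.

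The tallest cytosolic and mitochondrial peaks and the tallest peak without CCAAT near its summit are shown here as reference sequence of hg38, together with SARS2, which was added after its values were seen because it holds the most CCAAT boxes. All are written 5′ to 3′ on the strand of the synthetase gene, with CCAAT, or ATTGG where the box lies on the other strand, in capitals. For AARS1 (chr16:70289507-70289656, minus strand) and SARS2 (chr19:38930764-38930913, minus strand) these are the 150 bases before the canonical start. For CARS2 (chr13:110713068-110713267, minus strand) and EARS2 (chr16:23557476-23557675, minus strand) they are the 200 bases around the summit.
AARS1: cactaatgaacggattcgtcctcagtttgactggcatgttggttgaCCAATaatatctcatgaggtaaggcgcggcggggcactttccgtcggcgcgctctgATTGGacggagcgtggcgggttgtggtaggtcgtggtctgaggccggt
SARS2: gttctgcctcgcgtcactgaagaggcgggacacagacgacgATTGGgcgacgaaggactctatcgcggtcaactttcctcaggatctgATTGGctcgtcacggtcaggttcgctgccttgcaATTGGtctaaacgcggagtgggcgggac
CARS2: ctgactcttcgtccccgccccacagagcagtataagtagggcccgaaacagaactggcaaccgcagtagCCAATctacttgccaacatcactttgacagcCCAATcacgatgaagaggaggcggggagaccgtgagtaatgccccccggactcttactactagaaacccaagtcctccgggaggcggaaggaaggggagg
EARS2: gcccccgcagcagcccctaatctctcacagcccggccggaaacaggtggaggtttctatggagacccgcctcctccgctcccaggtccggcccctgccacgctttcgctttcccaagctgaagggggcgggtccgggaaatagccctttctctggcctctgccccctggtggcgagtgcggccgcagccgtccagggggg

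Among the cytosolic genes the tallest peak was at AARS1, the alanyl-tRNA synthetase gene on chromosome 16, with a pileup of 20 tags at the summit and a fold enrichment of 8.9 over the local background. The peak spans chr16:70289226-70289718. Its summit lay 5 bp from the canonical start, and 2 CCAAT boxes precede that start, 104 and 48 bases upstream. TARS1, for threonine, had a pileup of 18 tags and, at 10.3, the highest fold enrichment of the cytosolic genes. LARS1, for leucine, had 16 tags and a fold enrichment of 8.1. YARS1, for tyrosine, also had 16 tags, with a fold enrichment of 9.77. These 4 genes were the cytosolic members above the median pileup of all bound coding genes, which was 14 tags.

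FARSB, which encodes the beta subunit of the phenylalanine enzyme, and IARS1, for isoleucine, followed with 13 tags each and fold enrichments of 7.07 and 8.24. The remaining bound cytosolic genes had low peaks. QARS1 (glutamine) had 11 tags with a fold enrichment of 5.5. CARS1 (cysteine) and KARS1 (lysine) had 10 tags each, with fold enrichments of 7.86 and 6.11. EPRS1, which joins glutamate and proline to their transfer RNAs with 1 polypeptide, and WARS1 (tryptophan) had 9 tags each, with fold enrichments of 6.02 and 6.1. The lowest peaks were at GARS1 (glycine) and NARS1 (asparagine), with 8 tags each and fold enrichments of 5.56 and 5.06, the latter the lowest of all bound members. Peaks of 8 tags are weak in this library, where 5.06% of bound coding genes had a lower pileup.

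The mitochondrial genes held the 3 tallest peaks of the set. CARS2, for cysteine, had a pileup of 34 tags, above 95.5% of bound coding genes, with a fold enrichment of 8.03. The peak spans chr13:110712847-110713360. This summit lay 354 bp from the nearest CARS2 start but 7052 bp upstream of the canonical one, and it was 85 bp from a start of ING1, a chromatin reader gene. A second CARS2 peak, 193 bp upstream of the canonical start, had 18 tags and a fold enrichment of 7.79. EARS2 (glutamate) had 24 tags and the highest fold enrichment of all members, 11.2, above 94.5% of bound coding genes, in a peak at chr16:23557235-23557748. SARS2 (serine) had 24 tags and a fold enrichment of 10.2, with the summit 10 bp upstream of its start.

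PARS2 (proline) had 17 tags with a fold enrichment of 8.91, and MARS2 (methionine) had 14 tags with one of 6.82. RARS2 (arginine) and YARS2 (tyrosine) had 13 tags each, with fold enrichments of 7.37 and 6.14. WARS2 (tryptophan) had 11 tags and a fold enrichment of 6.82. FARS2 (phenylalanine) had the lowest mitochondrial peak at 8 tags, with a fold enrichment of 5.42. The mitochondrial peaks covered a wider range (8 to 34 tags, median 14, n = 9 genes) than the cytosolic ones (8 to 20 tags, median 11, n = 13 genes), and the ranges overlapped. The upper end of 34 tags is the CARS2 peak whose summit lay nearer to ING1, and the other CARS2 peak had 18 tags. The next tallest mitochondrial peaks, at EARS2 and SARS2, had 24 tags. Fold enrichment had a median of 7.37 for mitochondrial and 7.07 for cytosolic genes.

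HSF1 peaks were more frequent at synthetase genes than over all coding genes, while their heights lay around the general median. Their median pileup was 13 tags (95% interval of the median from the ordered values, 10 to 17, n = 22 genes), beside 14 tags over all bound coding genes. Median fold enrichment was 7.22 (6.1 to 8.9) beside 7.29. The −log10 p-value of the peak caller ran from 6.83 at NARS1 to 23.4 at EARS2, with a median of 11.7 beside 12.3. The summit lay a median of 88.5 bp from the nearest start, beside 94.5 bp. For scale, the peak at the shared promoter of the chaperonin genes HSPD1 and HSPE1 had 52 tags and that of HSPA8, the constitutive HSP70, had 37 tags, whereas DNAJB1 with 18 tags, HSPH1 with 16 tags and HSP90AA1 with 11 tags fell within the range of the synthetases. HSP90AB1 had no peak within 1 kb.

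**Figure D2:**
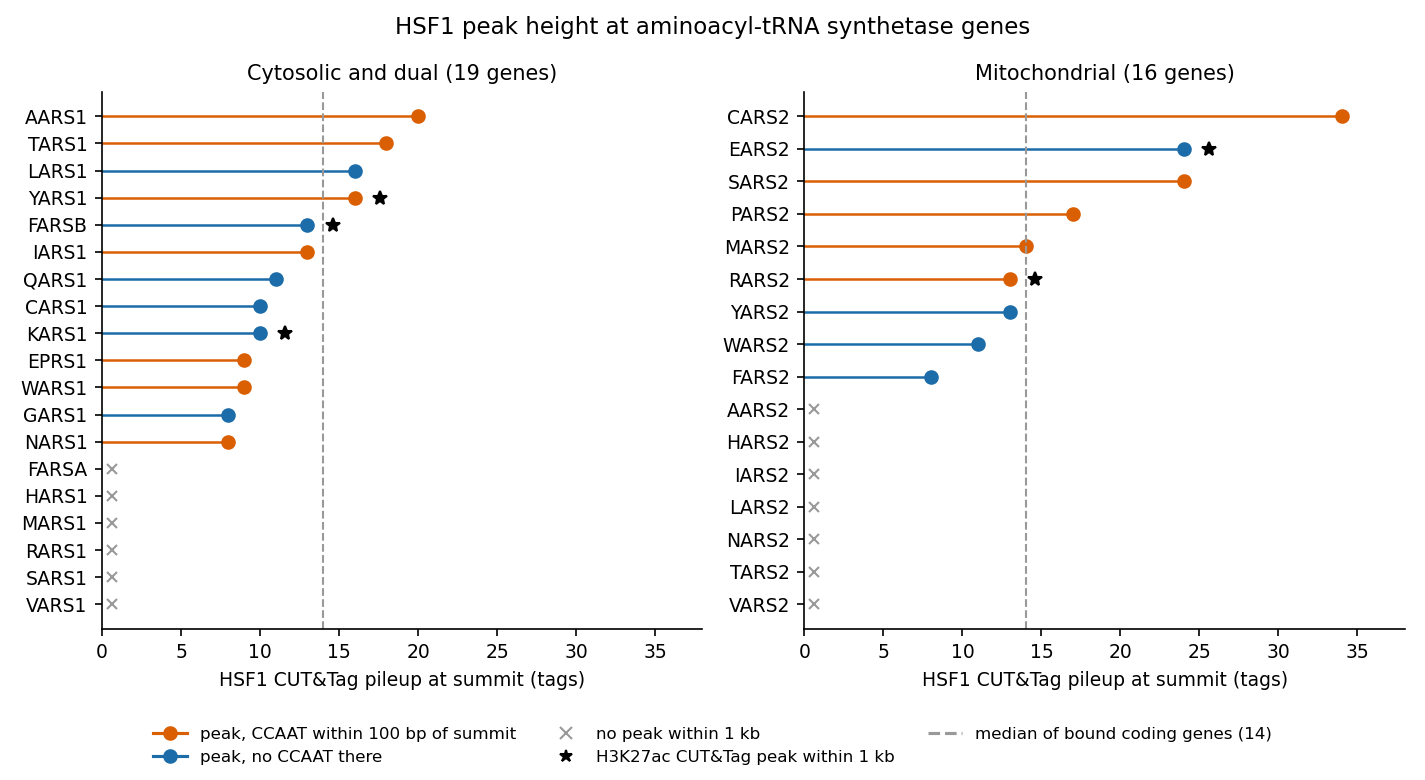
The horizontal axis is HSF1 CUT&Tag pileup at the tallest summit of each gene, in tags, with 1 row per gene. Circles are genes with a peak, coloured by CCAAT within 100 bp of the summit, crosses are genes without a peak, stars mark an H3K27ac peak and the dashed line is the median of all bound coding genes, 14 tags. CARS2 stands highest at 34 tags, followed by EARS2 and SARS2 at 24 tags. The CARS2 summit shown is nearer to a start of ING1 than to one of CARS2.

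No HSF1 summit lay within 1 kb of a start for 6 cytosolic genes (FARSA, HARS1, MARS1, RARS1, SARS1 and VARS1) and 7 mitochondrial genes (AARS2, HARS2, IARS2, LARS2, NARS2, TARS2 and VARS2). The threshold of 1 kb did not divide close cases. The bound member farthest from a start was YARS2, at 571 bp, and the nearest summit to an unbound member was 4505 bp away, at FARSA. For the other unbound genes it was at least 11.3 kb away, as at TARS2, and up to 1026 kb, as at VARS2. A gene without a listed peak is one below the calling threshold at this depth, and the lowest pileup of any listed peak was 4 tags.

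By amino acid, 16 amino acids have a synthetase gene on each side, with EPRS1 counted for glutamate and for proline. Both sides were bound for 6 of them (cysteine, glutamate, phenylalanine, proline, tryptophan and tyrosine), where phenylalanine counts through FARSB, since FARSA was unbound. The cytosolic gene alone was bound for 5 (alanine, isoleucine, leucine, asparagine and threonine) and the mitochondrial gene alone for 3 (methionine, arginine and serine). For histidine and valine neither was bound. These counts depend on shared peaks. With each peak given to the nearest coding start alone, EARS2, WARS1, YARS1 and RARS2 lost theirs. Glutamate, tryptophan and tyrosine then left the group with both sides bound, and arginine had neither side bound. Of the structural classes of the enzymes, 12 of 18 class I genes (66.7%) and 9 of 16 class II genes (56.2%) were bound. EPRS1, which holds a catalytic domain of each class, was bound as well. The intervals of class I and class II overlapped, and the difference between them was not tested. Over all coding genes the share with a summit within 1 kb of a start was 25.4%.

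In the cytosol 7 of these synthetases belong to the multisynthetase complex, and 5 of the 7 were bound (EPRS1, IARS1, KARS1, LARS1 and QARS1, but not MARS1 or RARS1). This compares with 8 of 12 cytosolic genes outside the complex and with 25.4% of all coding genes. Among the genes of the complex's scaffold proteins, AIMP2 had a peak of 27 tags with a fold enrichment of 10.7 and AIMP1 one of 17 tags with a fold enrichment of 9.28, while EEF1E1 had none. AIMP1 also had an H3K27ac peak, of 13 tags. All 3 scaffold genes held CCAAT from 150 bp upstream to 50 bp downstream of the canonical start, as did 28.5% of all coding genes.

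Synthetase genes carry many annotated starts, a median of 13 distinct starts against 5 for all coding genes. Among coding genes with 16 or more distinct starts 42.0% were bound, and among the members in this class 8 of 11 (72.7%). With 6 to 15 starts the values were 32.9% and 8 of 16, and with 1 to 5 starts they were 16.5% and 6 of 8. Base composition differed little, with a median GC content around the canonical start of 64.7% for members and 65.7% for all coding genes. In the bin from 60 to 70% GC, 35.1% of all coding genes and 12 of 19 members (63.2%) were bound. A coding gene that starts in the opposite direction within 1 kb was also a feature of bound genes in general (52.3% bound with one, 22.5% without), and here 6 of 8 members with such a neighbour and 16 of 27 without one were bound. Transcription level was not analysed here, and its part in these shares, like that of the number of starts, was not tested.

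Of the 22 bound members, 9 shared their peak with another coding gene (40.9%, interval 23.3 to 61.3), close to the 35% of all bound coding genes. SARS2 shared its peak of 24 tags with MRPS12, a protein of the small mitochondrial ribosomal subunit, whose canonical start lies 181 bp away. EARS2 shared its peak with UBFD1, KARS1 with TERF2IP, which binds at telomeres, RARS2 with ORC3, a subunit of the origin recognition complex, YARS1 with S100PBP, and FARS2 with LYRM4, a factor of iron-sulfur cluster assembly. AARS1 shared with DDX19B, WARS1 with WDR25 and CARS2 with ING1. At EARS2, KARS1, RARS2, WARS1, YARS1 and the taller of the CARS2 peaks the summit was nearer to a start of the neighbour than to one of the synthetase gene. Given to the nearest coding start alone, 17 synthetase genes kept a peak (48.6%), beside 21.2% of all coding genes under that rule.

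HARS1 and HARS2, the cytosolic and mitochondrial histidine genes, are the single pair of members that start back to back, 85 bp apart on chromosome 5, and so are not independent in these counts. Neither had a peak. The 84 bases between their canonical starts (chr5:140691371-140691454, plus strand, reading towards HARS2) hold no CCAAT, and capitals mark the 2 matches to the ETS motif CCGGAAG.
HARS2: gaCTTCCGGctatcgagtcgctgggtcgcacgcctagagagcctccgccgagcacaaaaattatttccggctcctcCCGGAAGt

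CCAAT on either strand was counted from 150 bp upstream to 50 bp downstream of the canonical start. It was present at 14 of 35 synthetase genes (40%, interval 25.6 to 56.4) and at 28.5% of all coding genes. It was present at 6 of 19 cytosolic genes (31.6%) and at 8 of 16 mitochondrial genes (50%), with overlapping intervals (15.4 to 54.0 and 28.0 to 72.0). With the window at the outermost start the cytosolic share was 15.8% (3 genes), below the 28.4% of all coding genes, and the mitochondrial share was again 50%. Members with the box were bound in 12 of 14 cases (85.7%, 60.1 to 96.0) and members without it in 10 of 21 (47.6%, 28.3 to 67.6). These intervals overlap. The corresponding shares over all coding genes were 32.8% and 22.5%. For mitochondrial ribosomal protein genes they were 64.3% (9 of 14) and 28.1% (18 of 64), and for cytosolic ribosomal protein genes the order was the other way, 33.3% (8 of 24) and 41.1% (23 of 56), with overlapping intervals. All 6 cytosolic genes with CCAAT (AARS1, CARS1, IARS1, NARS1, QARS1 and TARS1) were bound. The 6 bound mitochondrial genes with CCAAT were EARS2, MARS2, PARS2, RARS2, SARS2 and WARS2. The unbound members with CCAAT were AARS2 and TARS2, both mitochondrial.

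TARS2 held CCAAT boxes without a peak. The 150 bases before its start (chr1:150487269-150487418, plus strand) hold 2 boxes, 70 and 39 bases upstream, and the nearest HSF1 summit was 11.3 kb away. Those of IARS1 (chr9:92293698-92293847, minus strand) also hold 2 boxes, 111 and 65 bases upstream, with the summit between them and a pileup of 13 tags. The pair was chosen for display after the values were seen.
TARS2: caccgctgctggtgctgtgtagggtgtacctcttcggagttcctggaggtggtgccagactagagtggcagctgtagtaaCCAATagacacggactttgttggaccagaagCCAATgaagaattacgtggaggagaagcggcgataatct
IARS1: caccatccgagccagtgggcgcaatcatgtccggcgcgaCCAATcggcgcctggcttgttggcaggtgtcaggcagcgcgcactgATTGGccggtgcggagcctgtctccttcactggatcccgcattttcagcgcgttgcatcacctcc

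The 20 boxes at the 14 starts all lay upstream, at a median of 63.5 bp (range 28 to 129). Most boxes at all coding genes did so too, 7251 of 7796, at a median of 77 bp. Between 40 and 120 bp upstream lay 17 of the 20, beside 66.0% of the boxes at all coding genes. The reverse orientation, read as ATTGG on the gene strand, made up 14 of 20 (70.0%, interval 48.1 to 85.5), beside 50.6%. A longer form of the motif, with 2 purines before CCAAT and a G or C and a purine after it, was matched by 11 of the 20 boxes (55.0%), beside 32.7%. SARS2 carried 3 boxes, all read as ATTGG, 109, 62 and 28 bases upstream of its start.

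Around the summits, CCAAT within 100 bp was found at 12 of 22 bound members (54.5%, interval 34.7 to 73.1), beside 36.6% of all bound coding genes. The longer form was found at 8 of 22 (36.4%, 19.7 to 57.0), beside 16.9%. The nearest box lay a median of 28 bp from the summit (range 3 to 70, n = 12 genes), beside 30 bp. SARS2 had 3 boxes in this window and IARS1, WARS1, CARS2 and PARS2 had 2 each. The 12 members with CCAAT there had a median pileup of 15 tags and a fold enrichment of 8.13, and the 10 without had 11 tags and 6.48. Over all bound coding genes the same split gave 15 and 13 tags and fold enrichments of 7.79 and 7.03. The 95% intervals of the member medians overlapped for pileup (9 to 20 and 8 to 16). They also overlapped for fold enrichment (6.1 to 9.77 and 5.5 to 8.1). EARS2, with 24 tags, was the tallest peak without CCAAT within 100 bp, although a box lies 57 bases upstream of its canonical start. Of the 12 members with CCAAT near the summit, EPRS1, WARS1, YARS1 and CARS2 held none in the window around their canonical start. At WARS1, YARS1, CARS2 and RARS2 the summit was nearer to a start of the neighbouring coding gene. Their boxes and pileups can therefore not be assigned to the synthetase gene alone.

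**Figure D3:**
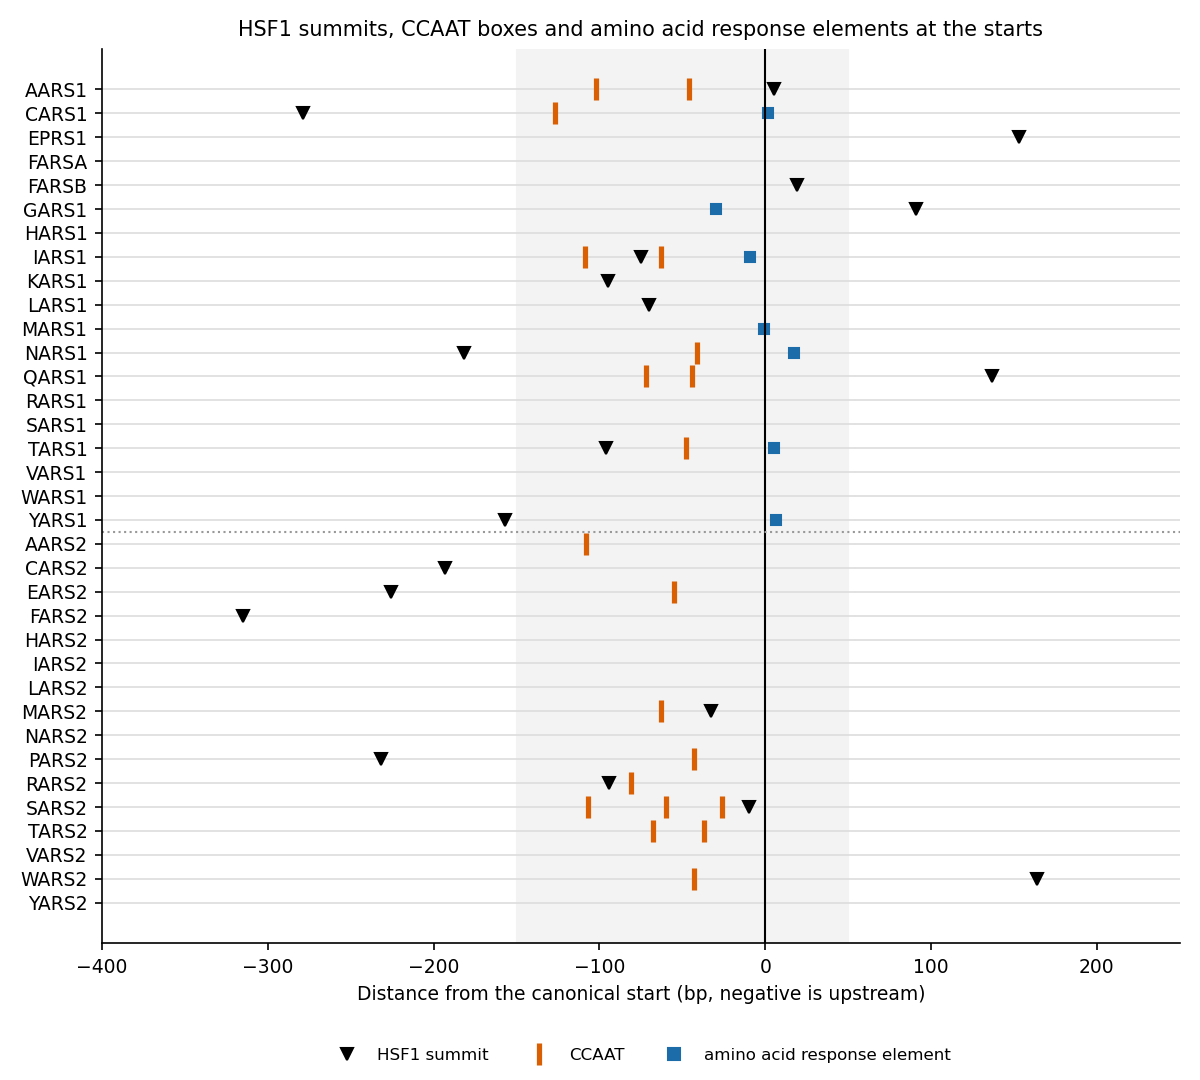
Each row is a synthetase gene, cytosolic above the dotted line and mitochondrial below it, and the horizontal axis is distance from the canonical start in bp, with the searched window shaded. Triangles are HSF1 summits, orange bars are CCAAT boxes and blue squares are amino acid response elements. Every box at these starts is upstream and every response element in the window belongs to a cytosolic gene, and the summits of WARS1, YARS2 and the taller peak of CARS2 fall outside the plotted range.

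The heat shock element was searched as 3 alternating GAA and TTC units, 2 bases apart, with at most 1 mismatch in the 9 fixed bases. No synthetase start held it (0 of 35, upper limit 9.89%), and 2.73% of all coding starts did. Near the summit it was found at NARS1 alone (1 of 22, 4.55%), beside 2.39% of all bound coding genes. NARS1 was also among the weakest peaks of the set, with 8 tags.

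The amino acid response element, searched as TGATGNAA on both strands in the same window around the canonical start, was found at cytosolic but not at mitochondrial synthetase genes. It was present at 7 of 19 cytosolic genes (36.8%, interval 19.1 to 59.0), at 0 of 16 mitochondrial genes (upper limit 19.4%) and at 1.57% of all coding genes. The intervals of the cytosolic and mitochondrial genes touch between 19.1% and 19.4%. The 7 genes were CARS1, GARS1, IARS1, MARS1, NARS1, TARS1 and YARS1, and 6 of them had an HSF1 peak, the exception being MARS1. That is 85.7% (48.7 to 97.4) of members with the element, beside 16 of 28 members without it (57.1%, 39.1 to 73.5). Among the cytosolic genes without it, 7 of 12 were bound (58.3%, 32 to 80.7), and these intervals overlap. Over all coding genes the order was the other way, with 17.8% bound with the element (14 to 22.4) and 25.6% without it (25 to 26.2).

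These 7 elements lay close to the start, from 33 bases upstream at GARS1 to 14 bases downstream at NARS1. They are printed with 7 bases on either side, in the orientation that reads TGATG, with the 8 matching bases in capitals. On hg38 the capitals are at chr11:3057418-3057425, chr7:30594845-30594852, chr9:92293703-92293710, chr12:57488064-57488071, chr18:57621815-57621822, chr5:33440967-33440974 and chr1:32817348-32817355 in the order shown. At NARS1 and YARS1 this orientation is that of the gene, and at the other 5 genes it is the opposite one. The match at GARS1 reads TGATGAAA and the other 6 read TGATGCAA.
CARS1: tagaatcTGATGCAAccgccgc
GARS1: cggagcaTGATGAAAtcgccgc
IARS1: acggaggTGATGCAAcgcgctg
MARS1: ccctcgcTGATGCAAccggaac
NARS1: cgctctcTGATGCAAcgccgga
TARS1: gaccagcTGATGCAAtcgaaag
YARS1: gcccagcTGATGCAAcctggct

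Of these 7 genes, IARS1 alone had its element within 100 bp of the HSF1 summit. The distance between element and summit was shortest at IARS1, with 66 bp, and it was 101 bp at TARS1, 121 bp at GARS1, 164 bp at YARS1, 200 bp at NARS1 and 281 bp at CARS1. None of the 7 overlapped a CCAAT box. Counted around the summits instead, the element was found within 100 bp at 3 of 22 bound members, EPRS1, IARS1 and the mitochondrial gene FARS2 (13.6%, interval 4.75 to 33.3), beside 0.981% of all bound coding genes. Among the other motifs, the ETS motif CCGGAAG was present at 12 of 35 synthetase starts (34.3%, interval 20.8 to 50.8) and at 12.1% of all coding starts. It was also present at mitochondrial (30 of 78, 38.5%) and cytosolic (22 of 80, 27.5%) ribosomal protein genes, with overlapping intervals. The 12 genes were CARS1, GARS1, HARS1, KARS1, NARS1, RARS1, SARS1, CARS2, EARS2, HARS2, MARS2 and PARS2, bound and unbound genes alike. The E-box CACGTG was present at 3 of 35 (8.57%), beside 6.67%. The NRF1 core CGCATGCG was present at MARS2 and VARS2 (5.71%), beside 2.45%. A match in these windows describes the reference sequence and not binding in these cells.

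**Figure D4:**
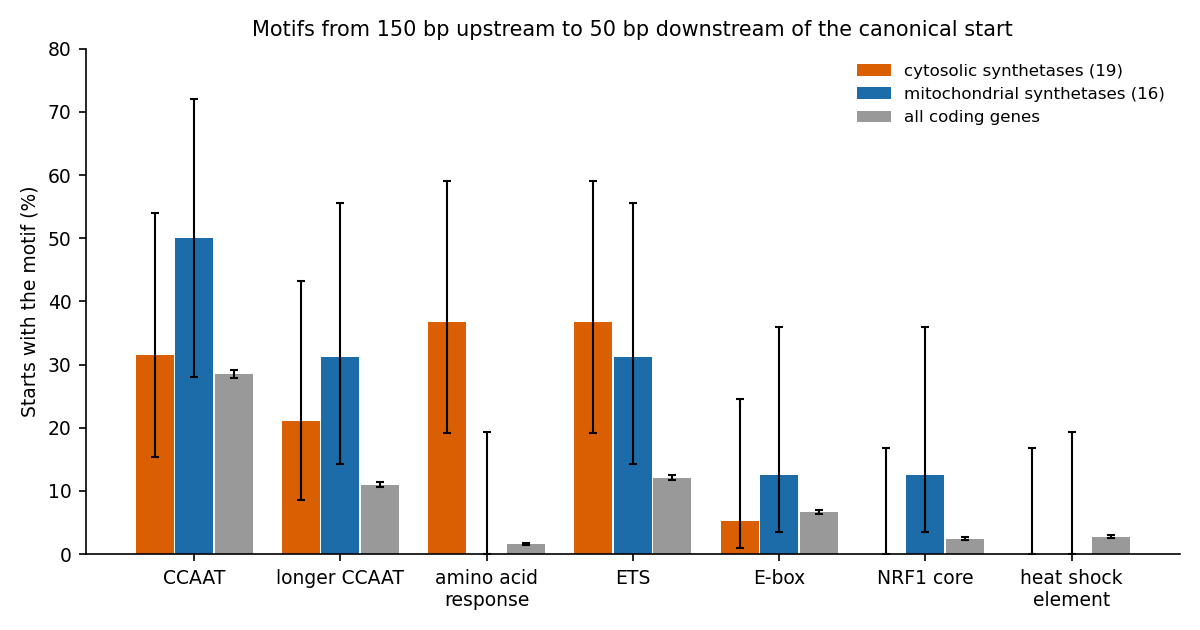
Bars give the percentage of canonical starts that hold each motif in the window from 150 bp upstream to 50 bp downstream, with 95% Wilson intervals, for cytosolic synthetase genes, mitochondrial synthetase genes and all coding genes. The amino acid response element stands at 36.8%, 0% and 1.57% in that order, and no synthetase start holds the heat shock element.

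H3K27ac CUT&Tag summits lay within 1 kb of a start for 5 of 35 synthetase genes (14.3%, interval 6.26 to 29.4), beside 3.31% of all coding genes. With peaks of −log10 q of at least 5 alone, 2 genes remained, FARSB and KARS1 (5.71%, beside 1.28% of all coding genes). The 5 were 3 cytosolic genes (FARSB, KARS1 and YARS1) and 2 mitochondrial genes (EARS2 and RARS2). All 5 were bound by HSF1, and in each the H3K27ac peak overlapped the HSF1 peak. Of the bound members 5 of 22 had the mark (22.7%, interval 10.1 to 43.4) and of the unbound members 0 of 13, beside 10.1% of bound and 0.998% of unbound coding genes.

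FARSB had the tallest of these H3K27ac peaks, with 15 tags and a fold enrichment of 9.41, and its summit was 25 bp from the HSF1 summit. KARS1 had 9 tags with a fold enrichment of 7.58, and RARS2 had 7 tags with one of 5.48. YARS1 and EARS2 had 6 tags each, with fold enrichments of 4.38 and 4.86. The summits of both antibodies were 2 bp apart at YARS1, 21 bp at RARS2, 143 bp at EARS2 and 209 bp at KARS1. Those 4 peaks lie around the median of 8 tags in that library. At KARS1, YARS1, EARS2 and RARS2 the promoter is shared with an opposite coding gene, so the mark cannot be assigned to the synthetase gene alone.

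The H3K27ac list was too short to check the cell type. None of 12 hepatocyte marker genes, ALB, AFP and APOA1 among them, had an H3K27ac summit within 1 kb, and neither did any of 8 leukocyte, fibroblast and endothelial markers. A synthetase gene without the mark can therefore not be called inactive. In the HSF1 list 3 of the 12 hepatocyte markers (APOA2, APOB and HNF4A) and 1 of the 8 others (COL1A1) had a peak. For the hepatocyte markers this is 25% (interval 8.89 to 53.2), beside 25.4% of all coding genes. Both lists were called without a control library. The paper describes a CUT&Tag negative control that lacked the primary antibody, and H3K27ac served as the positive control. Whether signal from open chromatin itself contributes to the HSF1 peaks was not tested.

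Genes that act next to the synthetases were counted the same way, beside the same 25.4% of all coding genes. Of the factors that deliver charged transfer RNA or move it through the ribosome, 5 of 8 had a peak (62.5%, interval 30.6 to 86.3). EEF1A1, the cytosolic carrier of aminoacyl-tRNA, had 33 tags and TUFM, its mitochondrial counterpart, 13 tags. EEF1B2 had 13 tags, EEF1G 12 and GFM1 7, while EEF1D, EEF2 and TSFM had none. Of the genes that complete charging in mitochondria by transamidation or formylation, QRSL1 had a peak of 8 tags and GATB, GATC and MTFMT had none. Of 15 genes of the amino acid response, 3 were bound, namely ATF3 with 20 tags, ASNS with 7 and PHGDH with 6 (20%, interval 7.05 to 45.2, which holds the share of all coding genes), and ATF4 and DDIT3 were not.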

How the data were processed

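CUT&Tag peak lists of HSF1 and H3K27ac in untreated Huh7 cells were analysed, with 1 library each. The authors aligned reads to hg38 with Bowtie2 and called peaks with MACS 2.1.4 on each library alone, without a control. Per the file headers the p-value cutoff was 1e-05, tags were shifted by -100 bp and extended to 200 bp, 1 tag per position was kept, and the local background spanned 10 kb. Pileup, as deposited, is a signal that counts the extended tags at the summit, with no depth scaling. The fold enrichment that the authors deposited is the ratio of pileup to local background, each plus 1. The deposited −log10 p-value comes from the caller's Poisson model. The deposited −log10 q-value column holds values although the headers say that q-values were not calculated, and it served only as a filter of at least 5.

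Peaks on chromosomes 1 to 22, X and Y and protein-coding genes of GENCODE release 44 were used. The canonical start is that of the annotation's canonical transcript. A gene was bound when a summit lay within 1 kb of any start, and its tallest peak was described. Motifs were searched on both strands of hg38, and sequences were read from it. Shares have 95% Wilson intervals. The members and gene lists were chosen with earlier results of these data known. Pileup and fold enrichment were given for every bound member, which covers the rule for named genes (the 5 tallest peaks of each group, the 3 lowest, members with 2 or more CCAAT boxes near the summit, with an H3K27ac peak or with a shared peak, and those nearest the 1 kb limit). Peak coordinates were given for the members whose sequence the rule selected, namely the tallest cytosolic and mitochondrial peaks and the tallest without CCAAT near the summit. Alternatives varied the distance, the choice of start, the peak filter, the peak position, the window and the motif. The ChIP-seq lists, which are on hg19 per the file headers, and the RNA-seq libraries were not analysed here.

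Scripts ran in Python 3.11.15 with pysam 0.24.0 for sequence, scipy 1.17.1 and numpy 2.4.6 for statistics, pandas 2.3.3 for tables and matplotlib 3.10.9 for plots. The code was tested on simulated data, and 6 of 6 planted values were recovered.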

Additional observations from a re-analysis of the deposited data

How the results depend on the processing

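Over 10 results, 51 alternatives were computed, and 50 stayed within the 95% interval of the reported value. The exception was the H3K27ac share, which was 5.71% (2 genes) with peaks of −log10 q of at least 5, instead of 14.3%, beside 1.28% of all coding genes under the same filter. The 95% intervals are wide, as with 46.3 to 76.8% for the bound share, so a large shift can stay within them. The bound share of the 35 genes ranged from 48.6% to 62.9%. It was 60.0% within 0.5 kb (YARS2 lost, all coding genes 24.3%), with the outermost start (GARS1 lost, 21.5%) and with the canonical start (WARS1 lost, 22.8%), and 51.4% with −log10 q of at least 5 (FARS2, GARS1, NARS1 and QARS1 lost, 22.0%). The lowest value, beside 21.2% of all coding genes, came from giving each peak to the nearest coding start alone, an alternative added for 3 results after seeing the data. The share of cytosolic genes with CCAAT fell from 31.6% to 15.8% when the window was placed at the outermost start, where all coding genes had 28.4%. The cause was not tested. No paired analysis was possible because each antibody has 1 library. For the same reason no value could be recomputed without a replicate, and shallow coverage of the H3K27ac library, with 896393 tags kept, limits what its missing peaks can show.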
